A study of Mus musculus with 8 samples.

Results

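The chaperones of the Hsp, Dnaj and Cct families were followed in RNA of whole mouse lung from 2 substrains of C3H mice that had breathed ozone or filtered air. Members were all probe sets whose single annotated gene symbol begins with Hsp followed by a, b, d, e, h or 90, begins with Dnaj, or is Cct followed by a digit. The rule found 77 probe sets of 55 genes among the 12422 probe sets of the array that are not controls, and 75 of them, from 54 genes, were bright enough to be tested among 10953. The rule uses gene symbols alone, but it was chosen with earlier results of these data known. By role, 15 probe sets read the HSP70 and HSP110 proteins, 3 the HSP90 proteins, 37 the J-domain proteins, 12 the subunits of the cytosolic chaperonin, 3 the mitochondrial HSP60 and HSP10, and 7 the genes named Hspb. The last group is mixed: Hspb11 encodes a subunit of the intraflagellar transport complex and Hspbp1 a nucleotide exchange factor of HSP70, and neither is a small heat shock protein.

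The 4 groups were C3H/HeOuJ in ozone, C3H/HeOuJ in filtered air, C3H/HeJ in ozone and C3H/HeJ in filtered air, each read on 2 arrays. All are inbred mice of the C3H background without a transgene; C3H/HeJ has an inherited defect in the response to endotoxin, which C3H/HeOuJ lacks. The labels give 72 h of exposure for both HeOuJ groups, no time for the HeJ groups, and neither an ozone concentration nor age, sex or number of animals. The series title names the leakiness of the airways under ozone as the subject.

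Each array gave 1 linear intensity per probe set, already scaled to a common mean, with array medians of 351 to 386. The labels mark the arrays of a group 1a and 1b and do not say whether these are separate animals. The p-values therefore rest on array-to-array spread that could be technical. The tissue label held: the surfactant gene Sftpc read 39540 to 100600 and the club cell gene Scgb1a1 read 40170 to 68060 on the 8 arrays. The 18 genes of heart and skeletal muscle summed to 35188 and 36347 in HeOuJ ozone, 32875 and 31729 in HeOuJ air, 27895 and 27400 in HeJ ozone and 35218 and 32451 in HeJ air, with none of them on all arrays at the floor of 69.6, to which dimmer values were raised. Of these, Myh6 was called higher in HeOuJ than in HeJ ozone (0.84, limma adjusted p 0.0494). The 9 lung markers summed to 230537 and 218485 in HeOuJ ozone, 179453 and 151597 in HeOuJ air, 175475 and 152569 in HeJ ozone and 200020 and 166399 in HeJ air. The largest single part of that sum in HeOuJ ozone was Sftpc (100600 and 77500, against 55300 and 39540 in HeOuJ air). For ozone against air in HeOuJ, 6 of the 9 lay below 0, with a median of -0.19. Among them Chil3, a macrophage gene, was called (-1.19, SE 0.18, limma adjusted p 0.0464), and the endothelial gene Pecam1 was not (-1.25, SE 0.39, limma adjusted p 0.187). The 9 B and plasma cell markers summed to 11854 and 14890 in HeOuJ ozone, 12847 and 13120 in HeOuJ air, 9986 and 9310 in HeJ ozone and 16316 and 17163 in HeJ air. In air 7 of the 9 lay below 0 in HeOuJ against HeJ, and an Ighm probe set was called lower (-1.51, SE 0.13, limma adjusted p 0.00551). In ozone another Ighm probe set (2.32, limma adjusted p 0.0127) and Igha (1.37, limma adjusted p 0.0251) were called higher in HeOuJ. In air that Ighm probe set (1.15, limma adjusted p 0.301) and Igha (0.55, limma adjusted p 0.722) also lay above 0, so the Ighm probe sets disagreed there. The part of these cell types in the chaperone results was not tested. Both 5'/3' control ratios, which read RNA integrity, were highest in HeOuJ ozone: the actin ratio was 0.766 and 0.756 in HeOuJ ozone, 0.598 and 0.603 in HeOuJ air, 0.505 and 0.53 in HeJ ozone and 0.498 and 0.432 in HeJ air, and the Gapdh ratio was 1.34 and 1.18 in HeOuJ ozone and 0.775 to 1.06 on the other 6 arrays. Fold changes are given on the log2 scale with the standard error of the limma model of all 8 arrays, p-values are adjusted over the 10953 probe sets, and a call means an adjusted p under 0.05.

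Chaperones bind unfolded proteins and help them reach or keep their shape. HSP70 proteins do so in cycles of ATP hydrolysis that J-domain proteins start and exchange factors such as HSP110 end; HSP90 takes over clients such as steroid receptors and kinases, and the chaperonin encloses actin and tubulin in a double ring. Many members are made at all times, whereas others, with Hspa1a and Hspa1b as the classic pair, are induced by heat shock factor 1 (HSF1) when proteins are damaged. In lung, the inducible HSP70 is known for its response to heat, endotoxin and oxidants.

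HSF1 binds inverted repeats of the letters GAA in the promoters of these genes, and those of Hspa1a, Hspa1b and Hsph1 are shown because these members had the smallest p between the substrains in air. Each is 300 bases of RefSeq sequence (assembly GRCm38.p6), from 250 before to 50 after the annotated start, on the minus strand: chr17:34972107-34972406 for Hspa1a, chr17:34959189-34959488 for Hspa1b and chr5:149636266-149636565 for Hsph1. Capitals mark matches to GAANNTTC or TTCNNGAA, or to the longer form in which a further unit follows after 2 more bases (GAANNTTC, NN and GAA, or TTCNNGAA, NN and TTC).
Hspa1a: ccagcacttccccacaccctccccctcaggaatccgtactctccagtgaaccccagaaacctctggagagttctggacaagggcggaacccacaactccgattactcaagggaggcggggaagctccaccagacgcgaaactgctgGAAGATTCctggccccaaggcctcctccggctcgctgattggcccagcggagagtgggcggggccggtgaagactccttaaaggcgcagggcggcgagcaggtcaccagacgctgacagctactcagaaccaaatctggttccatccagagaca
Hspa1b: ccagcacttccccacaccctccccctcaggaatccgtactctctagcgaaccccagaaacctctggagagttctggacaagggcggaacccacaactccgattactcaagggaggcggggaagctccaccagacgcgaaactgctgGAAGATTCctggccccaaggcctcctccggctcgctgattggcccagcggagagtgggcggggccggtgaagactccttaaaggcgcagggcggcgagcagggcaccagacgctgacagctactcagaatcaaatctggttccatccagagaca
Hsph1: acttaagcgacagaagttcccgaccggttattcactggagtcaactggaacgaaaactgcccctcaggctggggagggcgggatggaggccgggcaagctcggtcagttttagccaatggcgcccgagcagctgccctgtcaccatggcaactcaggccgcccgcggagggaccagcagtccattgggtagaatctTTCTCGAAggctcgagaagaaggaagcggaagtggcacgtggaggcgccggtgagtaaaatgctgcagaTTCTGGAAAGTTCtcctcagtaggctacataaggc
The Hspa1a and Hspa1b windows were identical at 296 of 300 bases (98.7%), and each holds 1 match, GAAGATTC, that begins 104 bases before the start. In Hsph1, TTCTCGAA begins 54 bases before the start and TTCTGGAAAGTTC lies after it. Both strands are covered, since each short motif is its own reverse complement and the long ones are each other's. Dnajb1, the member of next smallest p in air, held no match in its windows. A match is a run of letters and not a shown binding site.

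The promoter table held 47 of the 55 member genes. A match of the short motif lay in at least 1 window of 14 of them (29.8%), against 17.0% of all 27025 genes in the table and 15.1% of its 32851 windows. The longer motif lay in 4 of the 47 (8.51%), Dnajb6, Hspd1, Hspe1 and Hsph1, against 0.662% of all genes and 0.603% of windows. Hspd1 and Hspe1, which encode the mitochondrial HSP60 and its lid HSP10, are neighbours on chromosome 1 whose windows overlap and share their matches.

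The inducible HSP70 genes stood out on 1 pair of arrays, those of HeOuJ lungs in air. Hspa1a read 424 and 485 in HeOuJ ozone and 1961 and 2095 in HeOuJ air, with 597 and 462 in HeJ ozone and 316 and 473 in HeJ air. Hspa1b read 805 and 724 in HeOuJ ozone and 2249 and 1941 in HeOuJ air, with 399 and 466 in HeJ ozone and 435 and 439 in HeJ air. For both genes the HeOuJ air arrays lay above the other 6, and for Hspa1b the HeOuJ ozone arrays also lay above all 4 HeJ arrays. Hspa1l, the relative of Hspa1a that is known from testis, read 107 and 150 in HeOuJ ozone, 426 and 307 in HeOuJ air, 315 and 89.3 in HeJ ozone and 218 and 69.5 in HeJ air. Its arrays within a HeJ group differed about as much as the groups did. Hspa1a and Hspa1b encode almost the same protein and share most of their sequence, so their probe sets may each read RNA of both genes. All counts of members include both, and they may not be independent.

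**Figure D1:**
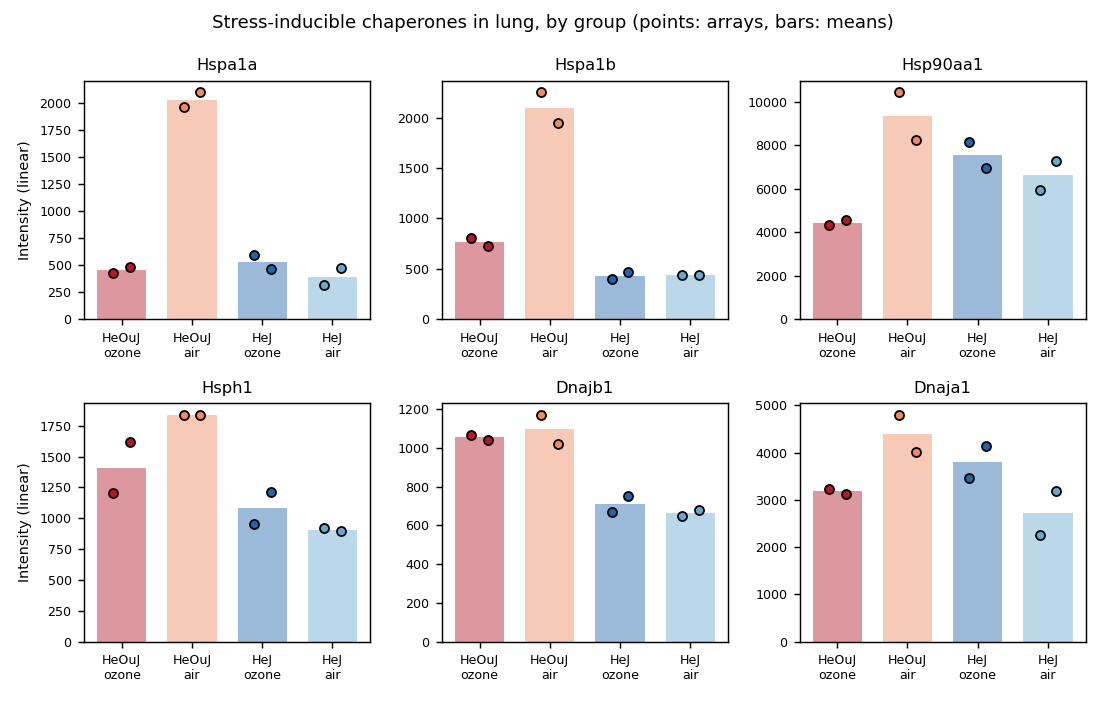
Linear intensity (y axis) of 6 chaperone probe sets on the 8 arrays (points) with group means (bars), HeOuJ ozone, HeOuJ air, HeJ ozone and HeJ air from left to right; Hsp90aa1 is shown by its brighter probe set. Hspa1a averages 454 in HeOuJ ozone and 2028 in HeOuJ air, and Dnajb1 averages 1053 and 1094 in the same groups against 710 in HeJ ozone and 665 in HeJ air.

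In C3H/HeOuJ lungs, Hspa1a, Hspa1b and Hsp90aa1 fell in ozone. Hspa1a averaged 454 ± 43.6 in ozone and 2028 ± 94.9 in air (SD, n = 2 each), and was 4.47-fold lower (log2 fold change -2.16, SE 0.26, limma adjusted p 0.0283). Hspa1b averaged 764 ± 57.8 in ozone and 2095 ± 218 in air, and was 2.74-fold lower (log2 fold change -1.45, SE 0.19, limma adjusted p 0.0412). Hsp90aa1, the inducible cytosolic HSP90, read 4314 and 4562 in HeOuJ ozone and 10420 and 8218 in HeOuJ air, with 8152 and 6948 in HeJ ozone and 5931 and 7286 in HeJ air. It averaged 4438 ± 176 in HeOuJ ozone and 9318 ± 1555 in HeOuJ air, and was 2.09-fold lower (log2 fold change -1.06, SE 0.17, limma adjusted p 0.0464). Unlike for Hspa1a and Hspa1b, its HeOuJ ozone arrays lay below all 6 others. Whether there were fewer cells with these RNAs or less RNA per cell cannot be told apart in bulk tissue.

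These 3 were the members called, 4% of the 75, and all were lower, against 0.329% of all probe sets called lower in the same comparison and 0.456% called either way. At an unadjusted p under 0.05 there were 10 members (13.3%, against 15.5% of all probe sets), 4 higher (5.33%, against 7.77%) and 6 lower (8%, against 7.73%), and 43 of 75 lay above 0 (57.3%, against 52.2%), 1 of them a Cct6a probe set whose sign was fixed by the filter on dim values. Among the 14 probe sets called higher (0.128%) there was no member. The 5'/3' actin ratio differed between the same groups. With it as a covariate the log2 fold change was -1.10 (SE 0.52) for Hspa1a, -1.55 (SE 0.51) for Hspa1b and -0.47 (SE 0.39) for Hsp90aa1, and none was called. The ratio did not overlap between any of the groups, so a fit with it cannot separate RNA integrity from group. The 3 calls were likewise lost when any 1 HeOuJ or HeJ ozone array was left out, and Hspa1a alone was called without either HeJ air array. A second Hsp90aa1 probe set read 27.2 and 14.8 in HeOuJ ozone, 95.4 and 5.62 in HeOuJ air, 64.2 and 47.6 in HeJ ozone and 70.3 and 36.1 in HeJ air, with 6 arrays at or under the floor of 69.6, and gives no usable change.

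The rest of the cytosolic HSP70, HSP90 and HSP110 genes did not pass. The whole list, which includes the called Hspa1a, Hspa1b and Hsp90aa1, had 10 of 11 genes on the array. In HeOuJ ozone 7 of the 10, those 3 called genes among them, were below 0. The median of the 10 was -0.61, against 0.02 over all genes. Each gene is counted by its brightest probe set. The median leans on that of Hspa4 (-0.83), whose other probe sets gave 0.52, 0.41, 0.17 and -0.11. Hsph1, the HSP110 that recharges HSP70, read 1204 and 1619 in HeOuJ ozone and 1839 and 1837 in HeOuJ air, with 956 and 1212 in HeJ ozone and 920 and 895 in HeJ air. Its HeOuJ air arrays were the highest and its HeJ air arrays the lowest of the 8, and the ozone effect in HeOuJ was -0.40 (SE 0.19, limma adjusted p 0.355). Hspa8, the constitutive HSP70, read 5862 and 7511 in HeOuJ ozone and 7155 and 5444 in HeOuJ air, with 5492 and 4690 in HeJ ozone and 4876 and 3958 in HeJ air. Its HeOuJ groups overlapped, with an ozone effect of 0.09 (95% interval -0.35 to 0.53). Hspa4l, an HSP110 relative, read 702 and 842 in HeOuJ ozone, 1075 and 888 in HeOuJ air, 889 and 784 in HeJ ozone and 863 and 756 in HeJ air. Hspa14, a ribosome-associated HSP70, read 427 and 380 in HeOuJ ozone, 366 and 238 in HeOuJ air, 340 and 324 in HeJ ozone and 380 and 186 in HeJ air. Hspa2, which is known for its role in sperm formation, read 351 and 274 in HeOuJ ozone and 190 and 106 in HeOuJ air, with 187 and 193 in HeJ ozone and 133 and 96.0 in HeJ air. It was the member of this list with the highest ozone effect in both substrains, 1.13 (SE 0.41, limma adjusted p 0.242) in HeOuJ and 0.75 (SE 0.41, limma adjusted p 1) in HeJ.

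Hspa4, an HSP110 protein, had 5 probe sets, and they disagreed. The brightest read 1823 and 1705 in HeOuJ ozone and 3584 and 2748 in HeOuJ air, with 2628 and 2274 in HeJ ozone and 1686 and 2332 in HeJ air. Its highest arrays were the HeOuJ air pair, as for Hspa1a, and the ozone effect in HeOuJ was -0.83 (SE 0.19, limma adjusted p 0.101). The second brightest read 796 and 639 in HeOuJ ozone, 400 and 620 in HeOuJ air, 450 and 445 in HeJ ozone and 384 and 316 in HeJ air. The third in brightness read 547 and 408 in HeOuJ ozone, 335 and 378 in HeOuJ air, 350 and 384 in HeJ ozone and 364 and 362 in HeJ air. The fourth read 268 and 263 in HeOuJ ozone, 254 and 220 in HeOuJ air, 156 and 185 in HeJ ozone and 197 and 194 in HeJ air. In these 3, both HeOuJ ozone arrays were above the other 6, with ozone effects of 0.52, 0.41 and 0.17 in HeOuJ. The dimmest read 158 and 96.9 in HeOuJ ozone, 167 and 107 in HeOuJ air, 24.6 and 149 in HeJ ozone and 181 and 114 in HeJ air. No single ozone effect can be given for Hspa4. Of the 16 member genes with more than 1 probe set, all tested probe sets had the same sign for 7 in HeOuJ ozone, 10 in HeJ ozone and 6 between the substrains in air.

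**Figure D2:**
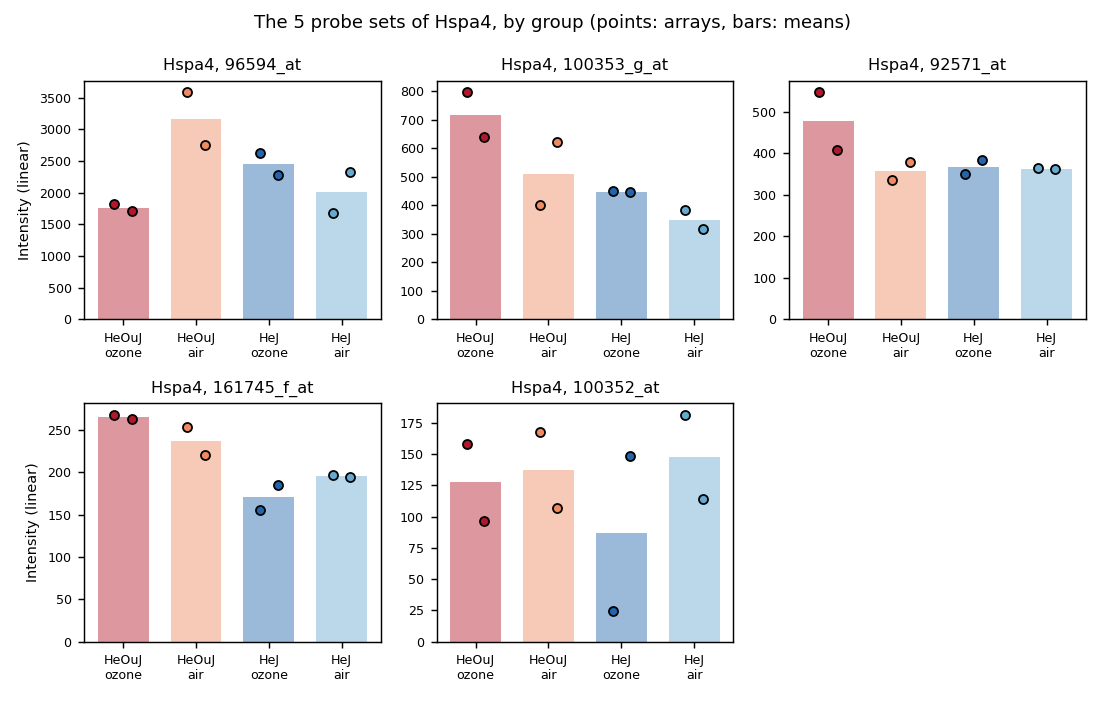
Linear intensity (y axis) of the 5 Hspa4 probe sets on the 8 arrays (points) with group means (bars), HeOuJ ozone, HeOuJ air, HeJ ozone and HeJ air from left to right. The brightest is highest on the HeOuJ air arrays (3584 and 2748), whereas the second brightest is highest on the HeOuJ ozone arrays (796 and 639).

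In C3H/HeJ lungs no member passed, with 0% of all probe sets called, a smallest member adjusted p of 1 in limma, and 3 members at an unadjusted p under 0.05 (4% of 75, against 4.35% of all probe sets). All 3 were higher in ozone, against 2.36% of all probe sets, none was lower, against 1.99%, and they are J-domain proteins. Dnaja1, a partner of Hspa8 in the cytosol, read 3229 and 3130 in HeOuJ ozone and 4799 and 4003 in HeOuJ air, with 3460 and 4136 in HeJ ozone and 2263 and 3182 in HeJ air. Its ozone effect was -0.46 (SE 0.19) in HeOuJ and 0.50 (SE 0.19) in HeJ. Dnajb6, which keeps polyglutamine proteins from aggregating, read on its brighter probe set 3015 and 2550 in HeOuJ ozone and 3048 and 2812 in HeOuJ air, with 3037 and 3039 in HeJ ozone and 2061 and 2576 in HeJ air. Dnajc7, a bridge between HSP70 and HSP90, read 891 and 972 in HeOuJ ozone and 867 and 681 in HeOuJ air, with 1142 and 925 in HeJ ozone and 715 and 784 in HeJ air. The log2 fold changes in HeJ were 0.40 (SE 0.15) for Dnajb6 and 0.46 (SE 0.20) for Dnajc7, and the second Dnajb6 probe set gave 0.01.

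Most member values in HeJ lay above 0 without a call. Of 75, 56 were above 0 (74.7%, against 51.2% of all probe sets), with a median of 0.09 against 0.01. The ozone arrays lay above the air arrays for 19 (25.3%, against 18.4%) and below them for 3 (4%, against 16%). In HeOuJ the ozone arrays lay above for 23 (30.7%, against 22.3%, the same Cct6a probe set included) and below for 15 (20%, against 19.5%). Of the 3 genes that fell in HeOuJ, Hspa1a had an ozone effect of 0.44 in HeJ (95% interval -0.14 to 1.03), Hspa1b of -0.02 (-0.46 to 0.42) and Hsp90aa1 of 0.20 (-0.19 to 0.58). These HeJ intervals lie above the HeOuJ intervals, which are -2.74 to -1.58, -1.89 to -1.01 and -1.45 to -0.67.

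**Figure D3:**
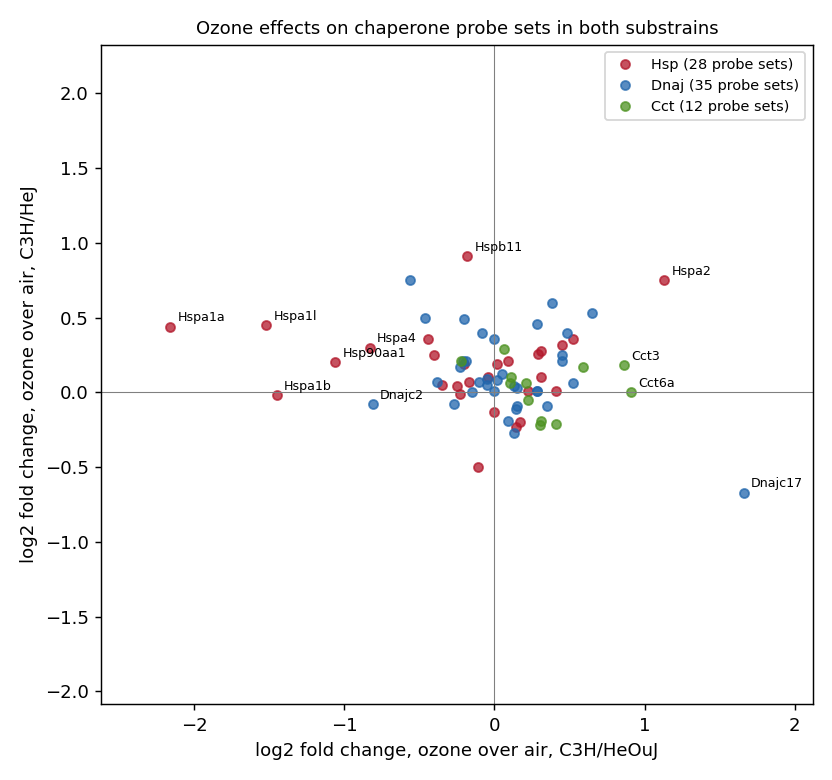
Log2 fold change of ozone over air in C3H/HeOuJ (x axis) and in C3H/HeJ (y axis) for the 75 tested chaperone probe sets (points, coloured by Hsp, Dnaj and Cct names; genes named where either change is at least 0.8 in size). Hspa1a (-2.16 in HeOuJ, 0.44 in HeJ) and Hspa1b (-1.45 in HeOuJ, -0.02 in HeJ) lie far to the left, and Hspa2 (1.13 in HeOuJ, 0.75 in HeJ) is high in both.

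The difference of the ozone effects, HeOuJ minus HeJ, was tested directly and called no member and 0% of all probe sets. Hspa1a had the smallest p of the members, with a difference of -2.60 (SE 0.36, limma adjusted p 0.115). Hspa1b followed with -1.43 (SE 0.27) and Hsp90aa1 with -1.26 (SE 0.24), both at a limma adjusted p of 0.157. The next were the brightest Hspa4 probe set with -1.13 (SE 0.27, limma adjusted p 0.213) and Dnaja1 with -0.96 (SE 0.26, limma adjusted p 0.243), followed by Dnajc17 with 2.33 (SE 0.80, limma adjusted p 0.335). At an unadjusted p under 0.05 there were 10 members (13.3%, against 11.4% of all probe sets), 8 of them lower (10.7%, against 6.3%) and 2 higher (2.67%, against 5.13%). The HeOuJ air arrays enter this difference, the fall in HeOuJ and the substrain difference in air, so these are not separate results.

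Between the substrains in air, Hspa1b and Hspa1a were higher in HeOuJ. Hspa1b averaged 2095 ± 218 in HeOuJ air and 437 ± 2.94 in HeJ air, a 4.78-fold difference (log2 2.26, SE 0.19, limma adjusted p 0.00551). Hspa1a averaged 2028 ± 94.9 in HeOuJ air and 394 ± 111 in HeJ air, a 5.24-fold difference (log2 2.39, SE 0.26, limma adjusted p 0.0249). They were 2 of 3 probe sets called higher on the whole array, 2.67% of members against 0.0274% of all probe sets (0.0456% in either direction). Both calls were lost when any 1 of the 8 arrays was left out, with log2 values between 2.15 and 2.36 for Hspa1b and between 2.10 and 2.68 for Hspa1a. The actin ratio again differed between these groups (0.598 and 0.603 in HeOuJ air, 0.498 and 0.432 in HeJ air). With it as a covariate the differences were 2.15 (SE 0.55) for Hspa1b and 3.55 (SE 0.56) for Hspa1a, and neither was called. Here too the fit cannot separate the ratio from the groups.

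No further member passed in air. Hsph1 differed by 1.02 (SE 0.19, limma adjusted p 0.246). Dnajb1, the J-domain partner of the inducible HSP70, read 1066 and 1040 in HeOuJ ozone and 1170 and 1019 in HeOuJ air, with 668 and 753 in HeJ ozone and 650 and 680 in HeJ air. All 4 HeOuJ arrays lay above all 4 HeJ arrays, and the difference was 0.57 (SE 0.17, limma adjusted p 0.145) in ozone and 0.72 (SE 0.17, limma adjusted p 0.549) in air. Dnaja1, the brightest Hspa4 probe set, Hspa8, Hsp90aa1 and Hspa5 differed in air by 0.71, 0.66, 0.51, 0.49 and 0.47. All 10 genes of the cytosolic HSP70, HSP90 and HSP110 list were above 0 in air, with a median of 0.58 against 0.00 over all genes, and 2 were called. In ozone 5 of the 10 were above 0, with a median of 0.08. Each gene is counted by its brightest probe set, and the other Hspa4 probe sets gave 0.52, 0.27, -0.03 and -0.11 in air.

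Over all members in air, 14 passed an unadjusted p under 0.05 (18.7%, against 5.71% of all probe sets), 13 of them higher (17.3%, against 3.12%) and 1 lower (1.33%, against 2.58%). Both HeOuJ arrays lay above both HeJ arrays for 27 (36%, against 17.1%) and below them for 4 (5.33%, against 15.5%). The members' median was 0.15 against 0.01 over all probe sets, and 55 were above 0 (73.3%, against 51.5%). Of the 13 genes higher in HeOuJ air at that unadjusted threshold, 10 were in the promoter table and 5 of these held the short motif (Hspa1a, Hspa1b, Hsph1, Dnaja1 and Dnajb6). Of the other 41 member genes tested, 36 were in the table and 9 held it. The longer motif lay in 2 of the 10 and 2 of the 36. Dnajb6 is among the 13 by its brighter probe set (0.35), while its other probe set gave -0.37. A part of the motif in the difference was not tested.

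**Figure D4:**
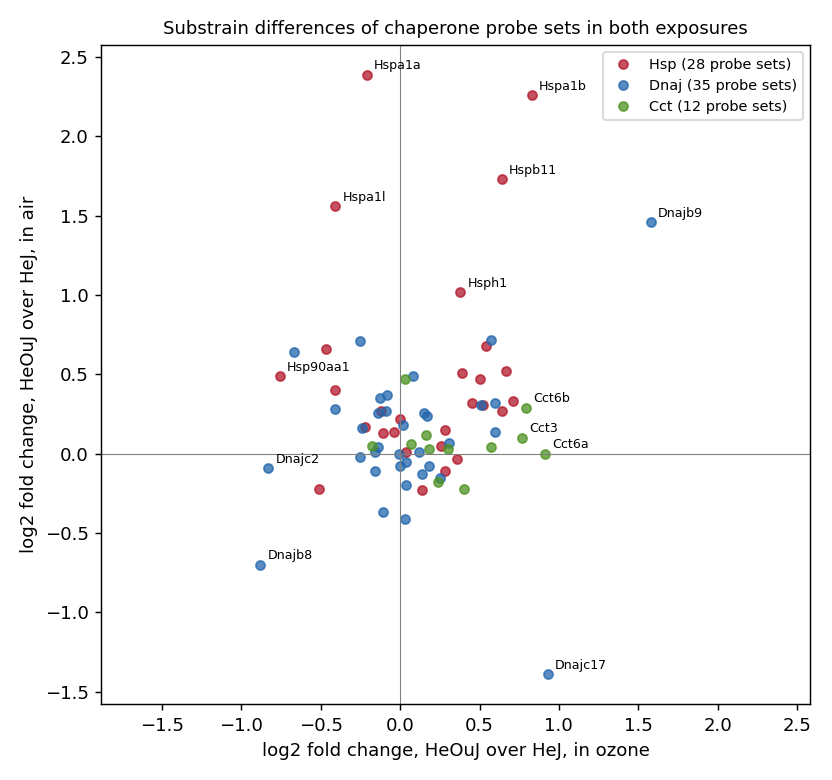
Log2 fold change of HeOuJ over HeJ in ozone (x axis) and in air (y axis) for the 75 tested chaperone probe sets (points, coloured by Hsp, Dnaj and Cct names; genes named where either difference is at least 0.75 in size). Hspa1b is high in both (0.83 in ozone, 2.26 in air), whereas Hspa1a is high in air alone (-0.21 in ozone, 2.39 in air).

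Between the substrains in ozone no member passed, against 0.977% of all probe sets called. Hsp90aa1 was lowest in HeOuJ ozone, with -0.76 (SE 0.17, limma adjusted p 0.0727), which was 0.20 (SE 0.60) with the actin ratio as a covariate. Hspa1b differed by 0.83 (SE 0.19, limma adjusted p 0.0823), while Hspa1a differed by -0.21 (95% interval -0.79 to 0.37). At an unadjusted p under 0.05 there were 14 members (18.7%), a share near the 18% of all probe sets, with 10 higher (13.3%, against 9.11%) and 4 lower (5.33%, against 8.9%). The HeOuJ arrays lay above the HeJ arrays for 27 (36%, against 24.4%) and below them for 12 (16%, against 21.6%). Averaged over both exposures, a comparison added after the values were seen, Hspa1b was the 1 member called higher in HeOuJ, with 1.54 (SE 0.14, limma adjusted p 0.00731), against 0.1% of all probe sets called higher and 0.155% called either way. At the unadjusted threshold there were 16 (21.3%, against 13%). Its 8 values do not overlap between the substrains, as for Dnajb1, Hspe1, the brighter Hspb8 probe set and the fourth Hspa4 probe set, 5 members in all (6.67%, against 2.7%). Averaged over both substrains, ozone called no member, against 0.0183% of all probe sets, and 9 passed the unadjusted threshold (12%, against 9.25%).

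The chaperonin genes lay mostly above 0 in HeOuJ ozone, and none was called. Of 12 probe sets, which read 8 genes, 11 were above 0 in HeOuJ, against 52.2% of all probe sets. Their median was 0.26, against 0.02 over all probe sets. In HeJ 7 of the 12 were above 0, against 51.2% of all probe sets, with a median of 0.06. A dim Cct6a probe set was tested only because both HeOuJ ozone arrays, and no others, exceeded the floor, which fixed its sign, and without it 10 of 11 were above 0 in HeOuJ with a median of 0.22. The genes encode subunits of the ring. Cct3 had 3 probe sets, of which the first read 1395 and 1361 in HeOuJ ozone, 1076 and 1158 in HeOuJ air, 976 and 886 in HeJ ozone and 1034 and 1142 in HeJ air. The second read 1944 and 1565 in HeOuJ ozone, 1130 and 819 in HeOuJ air, 1255 and 831 in HeJ ozone and 1097 and 736 in HeJ air. Both had their highest arrays in HeOuJ ozone, with ozone effects of 0.30 (SE 0.15, limma adjusted p 0.373) and 0.86 (SE 0.28, limma adjusted p 0.206). Over the other ways of fitting the model, the effect of the second probe set ranged between 0.29 and 1.09. The HeOuJ ozone arrays also had the highest 5'/3' control ratios. The third read 927 and 1057 in HeOuJ ozone, 1060 and 805 in HeOuJ air, 737 and 1071 in HeJ ozone and 1031 and 701 in HeJ air, and its groups overlapped.

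The brighter Cct5 probe set read 3095 and 3543 in HeOuJ ozone, 2907 and 2827 in HeOuJ air, 2859 and 2997 in HeJ ozone and 3006 and 2622 in HeJ air. The brighter Cct6a probe set read 1142 and 1118 in HeOuJ ozone, 1059 and 889 in HeOuJ air, 806 and 1046 in HeJ ozone and 961 and 940 in HeJ air. Cct6b, a relative of Cct6a known from testis, read 462 and 431 in HeOuJ ozone, 420 and 309 in HeOuJ air, 277 and 239 in HeJ ozone and 226 and 381 in HeJ air. In these 3 as well both HeOuJ ozone arrays lay above the other 6. Cct2 read 614 and 739 in HeOuJ ozone, 540 and 475 in HeOuJ air, 402 and 653 in HeJ ozone and 579 and 605 in HeJ air. Cct7 read 2756 and 3081 in HeOuJ ozone, 2711 and 2690 in HeOuJ air, 2676 and 2890 in HeJ ozone and 2551 and 2626 in HeJ air. Cct7 was among the steadiest members, with its highest array 1.21 times its lowest. Cct8 read 1049 and 657 in HeOuJ ozone, 787 and 808 in HeOuJ air, 893 and 990 in HeJ ozone and 968 and 615 in HeJ air. Cct4 read 2782 and 2767 in HeOuJ ozone, 3873 and 2696 in HeOuJ air, 2874 and 2552 in HeJ ozone and 2634 and 2071 in HeJ air, and was the exception with an ozone effect of -0.22 in HeOuJ. The first HeOuJ air array was the highest of the 8 for Cct4, and the second lay below both HeOuJ ozone arrays. The dimmer Cct5 probe set read 362 and 440 in HeOuJ ozone, 241 and 291 in HeOuJ air, 358 and 321 in HeJ ozone and 216 and 417 in HeJ air. A second Cct6a probe set read 73.6 and 233 in HeOuJ ozone and lay at or under the floor on the other 6 arrays.

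**Figure D5:**
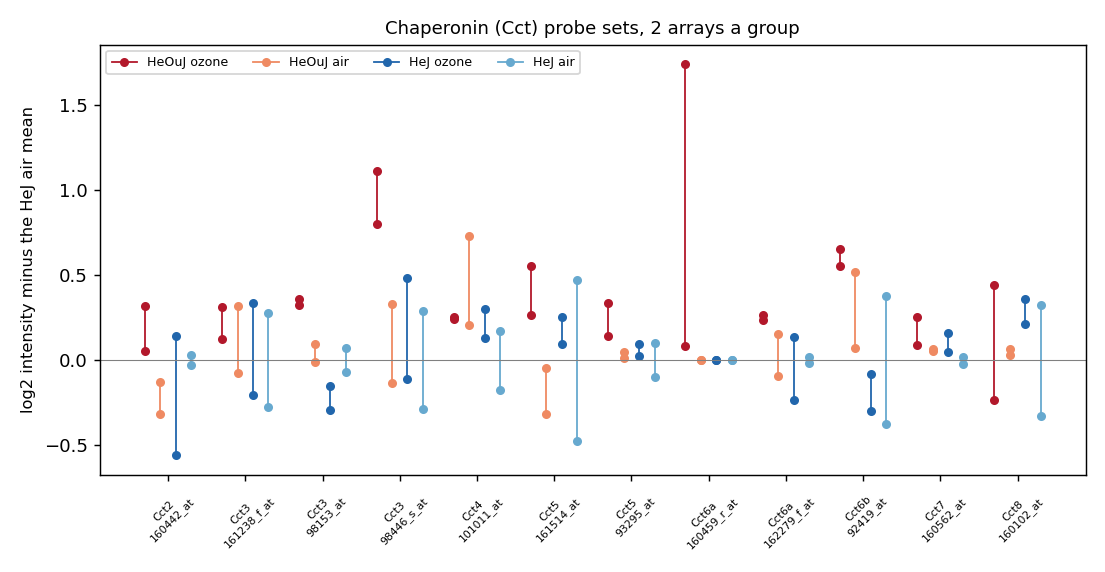
Log2 intensity minus the mean of the HeJ air arrays (y axis) for the 12 chaperonin probe sets (x axis), with the 2 arrays of a group as joined points and intensities below the floor raised to it. The HeOuJ ozone pair is the highest for the 2 Cct3 probe sets whose ozone effects in HeOuJ are 0.30 and 0.86. Cct4 is the 1 probe set whose HeOuJ ozone pair averages below its HeOuJ air pair (-0.22).

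Across all members, both HeOuJ ozone arrays lay above the other 6 for 17 probe sets (22.7%, against 11.9% of all probe sets) and below them for 3 (4%, against 9.05%), the 3 being Hsp90aa1, Dnajc2 and Hspa9. Leaving out probe sets that passed the filter only through those arrays, the dim Cct6a probe set among them, 16 of 74 members lay above (21.6%, against 11.5%). Besides 6 chaperonin probe sets and 3 of Hspa4, the 17 hold Hspa2, Hspa5, Dnajb11, Dnajc4, Dnajc17, the dimmer Hspd1 probe set and both probe sets of Dnajc8, a splicing factor. Both HeOuJ air arrays lay above the other 6 for 6 (8%, against 3.23%): Hspa1a, Hspa1b, Hsp90aa1, Hsph1, the brightest Hspa4 probe set and the brightest Dnajc3 probe set. They lay below the other 6 for 0 members (0%, against 3.41%). Both HeJ ozone arrays lay above the other 6 for 1 member, Hspa9 (1.33%, against 3.82%), and below them for 2 (2.67%, against 3.52%). Both HeJ air arrays lay above the other 6 for 0 (0%, against 3.24%) and below them for 5 (6.67%, against 2.84%), Hspa5 and Hsph1 among them.

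Chaperones of the endoplasmic reticulum were called in no comparison. Hspa5, the HSP70 of this compartment, read 6731 and 6613 in HeOuJ ozone and 6235 and 4799 in HeOuJ air, with 4968 and 4469 in HeJ ozone and 3930 and 3953 in HeJ air. It was highest in HeOuJ ozone and lowest in HeJ air, with a substrain difference of 0.50 (SE 0.15, limma adjusted p 0.141) in ozone and 0.47 (SE 0.15, limma adjusted p 0.722) in air. Its J-domain partner Dnajb11 read 790 and 899 in HeOuJ ozone and 571 and 602 in HeOuJ air, with 539 and 575 in HeJ ozone and 491 and 579 in HeJ air. The ozone effect on Dnajb11 was 0.52 in HeOuJ (SE 0.21, limma adjusted p 0.281) and 0.06 in HeJ. Hsp90b1, the HSP90 of the compartment, read 5962 and 7401 in HeOuJ ozone, 8202 and 6842 in HeOuJ air, 7618 and 6729 in HeJ ozone and 6910 and 6778 in HeJ air, and its groups overlapped in each comparison of 2 groups. Dnajb9, another partner of Hspa5, had the widest range of any member on its dimmer probe set, which read 567 and 759 in HeOuJ ozone, 697 and 250 in HeOuJ air, 325 and 148 in HeJ ozone and 234 and 98.4 in HeJ air. Its highest array was 7.71 times its lowest, and its brighter probe set had a difference of 0.26 in air and 0.15 in ozone against 1.46 and 1.58. Dnajc10, a disulfide reductase with a J domain, stayed within a range of 1.2 times over the 8 arrays. Over the 11 tested genes of this compartment, 4 were above 0 in HeOuJ ozone and 10 in HeJ ozone, against 52.2% and 51.2% of all probe sets. The smallest p among its genes in HeOuJ ozone belonged to Serpinh1, the collagen chaperone, with 0.62 (SE 0.14, limma adjusted p 0.0999), and to Pdia6, a disulfide isomerase, with 1.03 (SE 0.26, limma adjusted p 0.124).

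No mitochondrial member was called, and Hspa9 and Hspe1 had opposite orders between the substrains. Hspa9, the HSP70 of mitochondria, read 1557 and 1567 in HeOuJ ozone and 2067 and 1668 in HeOuJ air, with 2243 and 2205 in HeJ ozone and 2117 and 2203 in HeJ air. All 4 HeOuJ arrays lay below all 4 HeJ arrays, the 1 member with this order (1.33%, against 2% of all probe sets), and the difference was -0.51 (SE 0.14, limma adjusted p 0.12) in ozone and -0.22 (SE 0.14, limma adjusted p 0.969) in air. Hspe1 read 2469 and 1806 in HeOuJ ozone and 1898 and 1735 in HeOuJ air, with 1444 and 1504 in HeJ ozone and 1573 and 1356 in HeJ air. Its order was the reverse, with all 4 HeOuJ arrays above all 4 HeJ arrays. The brighter Hspd1 probe set read 3996 and 3433 in HeOuJ ozone and 4368 and 5809 in HeOuJ air, with 5726 and 4216 in HeJ ozone and 4167 and 3511 in HeJ air. Its ozone effect was -0.44 (SE 0.20) in HeOuJ and 0.36 (SE 0.20) in HeJ, while its dimmer probe set gave 0.31 and 0.10. Grpel1, the exchange factor of Hspa9, had a substrain difference of 1.23 in ozone (SE 0.32, limma adjusted p 0.107).

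Dnajc2, a J-domain protein of the ribosome, read on 1 probe set 358 and 617 in HeOuJ ozone and 884 and 772 in HeOuJ air, with 886 and 785 in HeJ ozone and 900 and 858 in HeJ air. Its ozone effect in HeOuJ was -0.81 (SE 0.27, limma adjusted p 0.209), and another probe set gave 0.00. Dnajc17, a splicing-related protein, read 586 and 503 in HeOuJ ozone and 86.4 and 342 in HeOuJ air, with 293 and 276 in HeJ ozone and 427 and 478 in HeJ air. Its ozone effect was 1.66 (SE 0.56, limma adjusted p 0.22) in HeOuJ and -0.67 (SE 0.56) in HeJ, with a wide spread between the HeOuJ air arrays. Dnajc8 read 7258 and 6840 in HeOuJ ozone and 6500 and 6219 in HeOuJ air, with 6151 and 6827 in HeJ ozone and 6350 and 6304 in HeJ air on its brighter probe set. It was the steadiest member, with its highest array 1.18 times its lowest. Among 35 tested J-domain probe sets, 20 were above 0 in HeOuJ ozone and 27 in HeJ ozone, with medians of 0.05 and 0.07. Over all probe sets the shares above 0 were 52.2% and 51.2%. None of the 35 was called in any comparison. Dnajb5 and 1 of 4 Dnajc3 probe sets were too dim to test. Over all members the ratio of the highest to the lowest array had a median of 1.81, against 1.93 over all probe sets tested. Among the brighter probe sets, with a mean log2 of 9 or more, it was 1.68 for 46 members and 1.65 for all 5088.

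Of the Hspb genes, Hspb8, a small heat shock protein that works with Bag3, read 1880 and 2496 in HeOuJ ozone and 2274 and 2070 in HeOuJ air, with 1740 and 1453 in HeJ ozone and 1745 and 1725 in HeJ air. All 4 HeOuJ arrays lay above all 4 HeJ arrays, with a difference of 0.45 in ozone and 0.32 in air. Hspb2, which is abundant in heart and skeletal muscle, read 1778 to 2449 over the 8 arrays on its brighter probe set, with no group apart. Hspb1, an actin-binding small heat shock protein, was dim, with 19.3 to 204 over the 8 arrays and 3 of them at the floor. Hspb11 read 340 and 216 in HeOuJ ozone and 227 and 416 in HeOuJ air, with 95.5 and 317 in HeJ ozone and 123 and 56.3 in HeJ air. In air its HeOuJ arrays lay above the HeJ arrays, with a difference of 1.73 (SE 0.63, limma adjusted p 0.813). The ozone effects of the 7 Hspb probe sets ran between -0.20 and 0.31 in HeOuJ and between -0.23 and 0.91 in HeJ.

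Of 22 co-chaperones and heat shock factors outside the rule, 16 were on the array and 14 were tested. None of the 14 was called in any comparison, and they included no heat shock factor. Hsf2 and Hsf4 each lay at or under the floor on 7 arrays and were too dim to test. Hsf1 was not among the 16, so a change in heat shock factor RNA was not tested. In HeOuJ ozone 11 of the 14 were above 0 with a median of 0.16, and in HeOuJ against HeJ air 7 were above 0 with a median of 0. Fkbp4, an HSP90 co-chaperone of steroid receptors, had the smallest p in HeOuJ ozone, with 0.45 (SE 0.13, limma adjusted p 0.149). The next, Bag6, gave 0.79 on 1 probe set and -0.83 on another. Cdc37, the HSP90 co-chaperone of kinases, and Chordc1, an HSP90-binding protein, were first in air between the substrains, with 0.39 (SE 0.14) and 0.67 (SE 0.25), both at a limma adjusted p of 0.813. Among 17 immediate early genes, which respond quickly to handling and stress, Klf4 alone was called in HeOuJ ozone, with -1.80 (SE 0.28, limma adjusted p 0.0464), and 11 of the 17 were below 0. Their summed intensity was 66180 and 76321 in HeOuJ ozone and 69381 and 65641 in HeOuJ air.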

How the data were processed

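RNA of whole lung from 4 groups of mice was read on 8 oligonucleotide arrays, 2 a group. The deposited values are 1 linear intensity per probe set and array. The sources used here do not name the authors' software. The trimmed mean of every array of deposited intensity values lay between 800.39 and 800.41, so they had been scaled to a common level. Of 12488 probe sets, 66 controls were set aside. A floor was set at 69.63, the 20th percentile (log2 6.12), and replaced anything lower before log2 was taken of the deposited intensity. Testing needed 2 or more of the 8 arrays above that floor. One model of 4 group means was fitted with limma 3.58.1 in R 4.3.3 with a variance trend on intensity, 4 residual and 4.54 prior degrees of freedom. Adjustment was by Benjamini-Hochberg at a threshold of 0.05. Signed values are ozone over air or HeOuJ over HeJ.

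Gene names came from GEO's platform annotation, in which 10833 probe sets have 1 gene, 396 have several and 1193 have none. Of the 396, 2 name a chaperone together with another gene and were not members. Promoters came from RefSeq (GRCm38.p6). The members and lists were chosen with earlier results of these data known. A list takes the brightest probe set of each gene. Values on all 8 arrays are given for members called in any comparison and their other probe sets, for the 6 members of smallest p in each comparison, and for the cytosolic HSP70, HSP90, HSP110 and chaperonin genes. From other lists, genes that passed in the comparisons of 2 groups were named, with the 2 of smallest p where a list is described. Over the 6 pairs of groups, the deviations of same-lettered arrays correlated between -0.01 and 0.138, so the letters were not taken to pair arrays. The model was tested on simulated data with changes of 2-fold and 4-fold. For ozone against air in HeOuJ it recovered 46% and 94% of them, with 6 false calls. For HeOuJ against HeJ in air it recovered 48% and 85%, with 13 false calls. Many 2-fold changes can therefore go uncalled. The model was refitted with other normalisations, floors, filters and variance models, with fewer arrays, with the letters as a block and with the actin ratio. Plots were made in matplotlib 3.10.9.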

Additional observations from a re-analysis of the deposited data

How the results depend on the processing

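With 2 arrays a group, each member call was lost under at least 1 alternative. For ozone against air in HeOuJ, the 3 member calls became 1 without the filter on dim probe sets and 0 without an intensity trend, with only the arrays of the groups compared, or with the actin 5'/3' ratio as a covariate; leaving out 1 array gave 0 to 1, the 1 being Hspa1a without either HeJ air array. For HeOuJ against HeJ in air, the 2 calls became 1 without the filter and 1 without a trend, 0 with only the groups compared and 0 with the covariate, and 0 without any 1 array. The averaged substrain comparison, added after the values were seen, gave 0 instead of 1 with the covariate, 2 among probe sets above the median level, and 0 to 1 without 1 array, the 1 being without HeOuJ air 1b. With only probe sets above the median level, where fewer are adjusted over, the difference of the ozone effects called 1 member (Hspa1a) and HeOuJ against HeJ in ozone called 2 (Hsp90aa1 and Hspa1b), against 0 in each. The HeJ ozone effect and the averaged ozone effect called 0 in every alternative. With the letters as a replicate block, 2 members were called in HeOuJ ozone (Hspa1a and Hspa1b) and 2 in air, and 0, 0, 0 and 0 in the other planned comparisons.

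Of 693 alternative values of 42 single results, 622 kept direction and side of the threshold, 65 fell short of it, 4 newly passed and 2 changed sign. Both changes were of Hsp90aa1 with the actin covariate: 0.20 for HeOuJ against HeJ in ozone (-0.76 without it) and 0.00 for the averaged ozone effect (-0.43). The same covariate moved the ozone effect in HeOuJ of the brightest Hspa4 probe set to -0.02 (-0.83 without it) and the averaged ozone effect of Hspa1a to -0.08 (-0.86). The ratio did not overlap between the groups, so these fits cannot separate it from them, and the cause was not tested. The ozone effect in HeOuJ ranged over all alternatives between -2.26 and -1.10 for Hspa1a, -1.56 and -1.35 for Hspa1b, and -1.23 and -0.47 for Hsp90aa1. Probe sets near the floor of 69.6 limit Hspb1, Hspa1l and the second probe sets of Hsp90aa1 and Cct6a.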

Other observations

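Outside the member families, 29 tested genes held the longer heat shock motif in a RefSeq promoter window. None was called in any of the comparisons. In HeOuJ against HeJ air, 17 of them were above 0 (58.6%, against 49.8% of the other 6073 genes with a promoter entry), with a median of 0.04. In HeOuJ ozone 14 were above 0 (48.3%, against 52%), with a median of 0. The windows of Hspa1a and Hspa1b hold the short motif alone, so these genes cannot show how others with that motif behaved.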
